A study of Caenorhabditis elegans with 3 samples.

Results

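The genes described here encode the major sperm proteins and other, mostly small, sperm proteins of the nematode Caenorhabditis elegans. They were taken by their WormBase symbols as the protein-coding genes named msp, msd, ssp, ssq, sss or nspd with a number, and 62 of the 45836 gene entries met this rule: 31 msp, 4 msd, 12 ssp, 4 ssq, 1 sss and 10 nspd genes. A further 7 genes with such names are annotated as pseudogenes and were left out. The entry R74.10, named ssp-28 in one annotation and spp-28 in the other, was left out as well.

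The study compared dissected germlines of wild-type N2 hermaphrodites under 3 feeding treatments, with 4 libraries each. Control animals ate HT115 bacteria carrying the empty L4440 plasmid, the P granule RNAi group received RNAi against P granule components, and the csr-1 RNAi group was fed the csr-1 clone of the Ahringer library. P granules are germline condensates of RNA and protein, and the RNAi mixture is known from the study to hit the PGL protein genes pgl-1 and pgl-3 and the helicase genes glh-1 and glh-4. CSR-1 is a germline Argonaute protein that binds small RNAs antisense to germline transcripts. Feeding began in first-stage larvae at 24 °C, and the germlines came from their young adult progeny. No transgene or mutant allele is named in the labels for any group, so the groups share the N2 background. Each library pooled RNA from 400 to 500 gonads, so differences between animals within a pool are not seen, and knockdown by feeding is partial.

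Major sperm protein is the most abundant protein of nematode sperm. It polymerises into the filaments that drive the crawling of the tailless sperm, is packed in fibrous bodies while spermatocytes divide, and is released by sperm as a signal for oocyte maturation and sheath contraction. In hermaphrodites sperm are made in the last larval stage, after which the germline switches to oocytes, so young adult germlines are expected from textbook knowledge to transcribe few sperm genes. The msd and many ssp genes encode small proteins related to the major sperm protein domain, ssq and sss genes encode other proteins named for their expression in sperm, and nspd genes encode a family of short nematode-specific peptides.

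The libraries held 18.4 to 31.9 M (megareads) in genes. The targeted genes were lower in the groups aimed at them: csr-1 fell by 2.70 on the log2 scale under csr-1 RNAi (limma, adjusted p = 3.56e-05), and pgl-1, pgl-3 and glh-4 fell by 3.25, 2.65 and 2.22 under P granule RNAi (limma, adjusted p of 1.97e-05 or less), while glh-1 had a log2 fold change of −0.52 (limma, adjusted p = 0.299). Of the germline markers, all 10 listed had reads in every library. Somatic markers also had reads, and their levels are given below.

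The 62 genes lie on chromosomes I (7), II (15), III (2), IV (36) and V (2), and none lies on X. The msp genes are found on 2 chromosomes only, 13 on II and 18 on IV. Most members are small: 54 of the 62 have a single annotated exon, and 28 of the 31 msp genes have a coding length of 384 bases. They are also crowded, since 45 of the 62, and 24 of the 31 msp genes, have another member within 20 kb. Coding sequences of msp genes are nearly identical, so reads can be shared or discarded between them and the value of any single msp gene is uncertain. The deposited table counts reads without a unique alignment apart, and these made up 2.04% to 2.76% of all reads it counts for a library. The libraries do not mark strand, and 2 members overlap exons of another gene, msd-2 with F44D12.16 and ssq-4 with T28H11.7.

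Values below are normalised reads, that is reads divided by the authors' size factor for the library. The libraries of a group are called orig, 1, 2 and 3, as in the deposited table, and values are always given in that order. With 55 members above the filter on low values (at least 10 normalised reads in at least 4 libraries), 7 were not tested. Of these 7, nspd-8 had 0 reads among 294.4 M in all libraries, which allows up to 0.0102 reads per megaread, for counting error only. The other 6, msd-3, msp-32, msp-58, msp-74, ssp-32 and ssp-36, reached at most 25.9 normalised reads, for ssp-36 in csr-1 RNAi library 3. Of the 55 tested, 47 had at least 10 normalised reads in all 4 controls. The remaining 8 (msd-1, msp-63, msp-79, nspd-9, ssp-9, ssp-11, ssp-19 and ssp-33) reached the filter only with RNAi libraries, so counts and medians over the tested members are a description.

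The sperm protein genes were read in every group, with a spread between libraries of one group that was as wide as the differences between groups. Summed over the 62 genes, the control libraries held 9287, 7629, 2631 and 2816 normalised reads. The P granule RNAi libraries held 23251, 9501, 44755 and 18443. The csr-1 RNAi libraries held 1786, 7368, 36251 and 82641. Thus csr-1 RNAi held both the lowest and the highest library of the 12, and its highest was 46.3-fold above its lowest, against 4.71-fold under P granule RNAi and 3.53-fold in the controls. The mean sum was 5591 ± 3380.1 (SD, n = 4) in the controls, 23988 ± 14971 (SD, n = 4) under P granule RNAi and 32012 ± 36978 (SD, n = 4) under csr-1 RNAi. Without csr-1 RNAi library 3 the csr-1 mean was 15135.

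By sum, all 4 P granule RNAi libraries lay above all 4 controls, although the lowest, 9501, lay just above the highest control, 9287. This separation depended on the scaling. As a share of the reads in genes, the members took 0.0384%, 0.0299%, 0.0101% and 0.0123% in the controls and 0.105%, 0.0343%, 0.189% and 0.0815% under P granule RNAi, so that P granule RNAi library 1 fell between the controls. Under csr-1 RNAi the shares were 0.00769%, 0.0312%, 0.157% and 0.344%. Where single members below are said to lie above the controls, this holds in normalised reads and was not repeated by share. Here and below, a changed number of sperm-fated cells and a changed amount of RNA per cell cannot be told apart, since the germlines were measured in bulk.

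**Figure D1:**
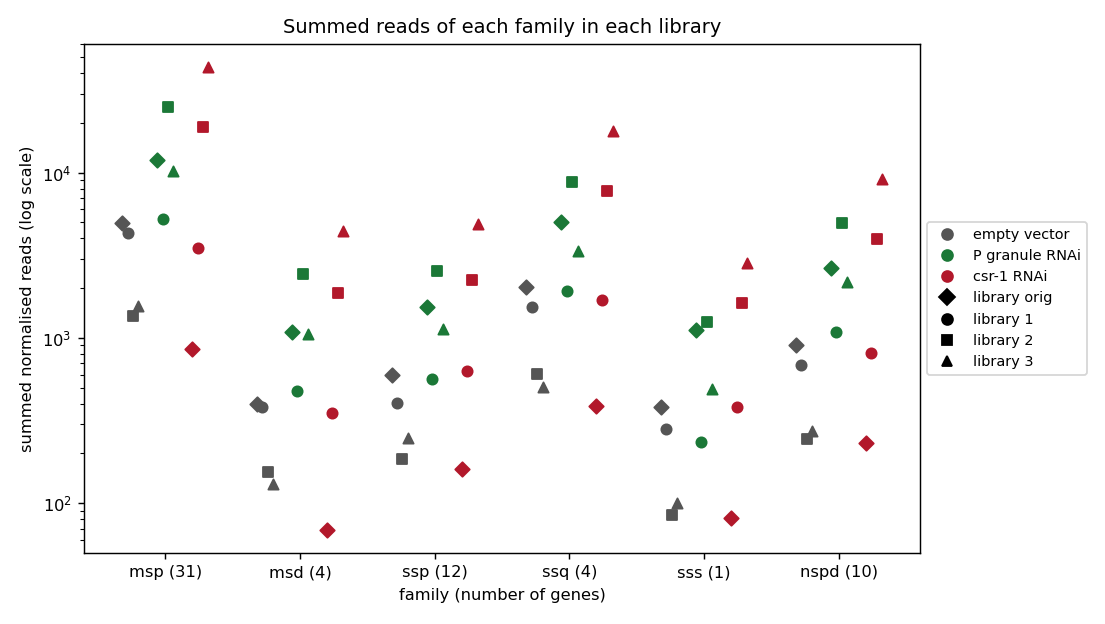
Summed normalised reads of the genes of each family (log scale), with a point for each library, coloured by group and shaped by library name; the number of genes is in brackets. In all 6 families the highest point is csr-1 RNAi library 3, while csr-1 RNAi library orig holds the lowest of its group.

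The members rose and fell together from library to library. In csr-1 RNAi library 3, 53 of the 55 tested members had their highest value of the 12 libraries. In csr-1 RNAi library orig all 55 had the lowest value of the csr-1 group, and 33 the lowest of the 12. Under P granule RNAi, library 2 was the highest of its group for 54 members and library 1 the lowest for 54. In the controls, library orig was the highest for 47 and library 2 the lowest for 38. Since the members share libraries, these counts describe the libraries and are no replication.

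**Figure D2:**
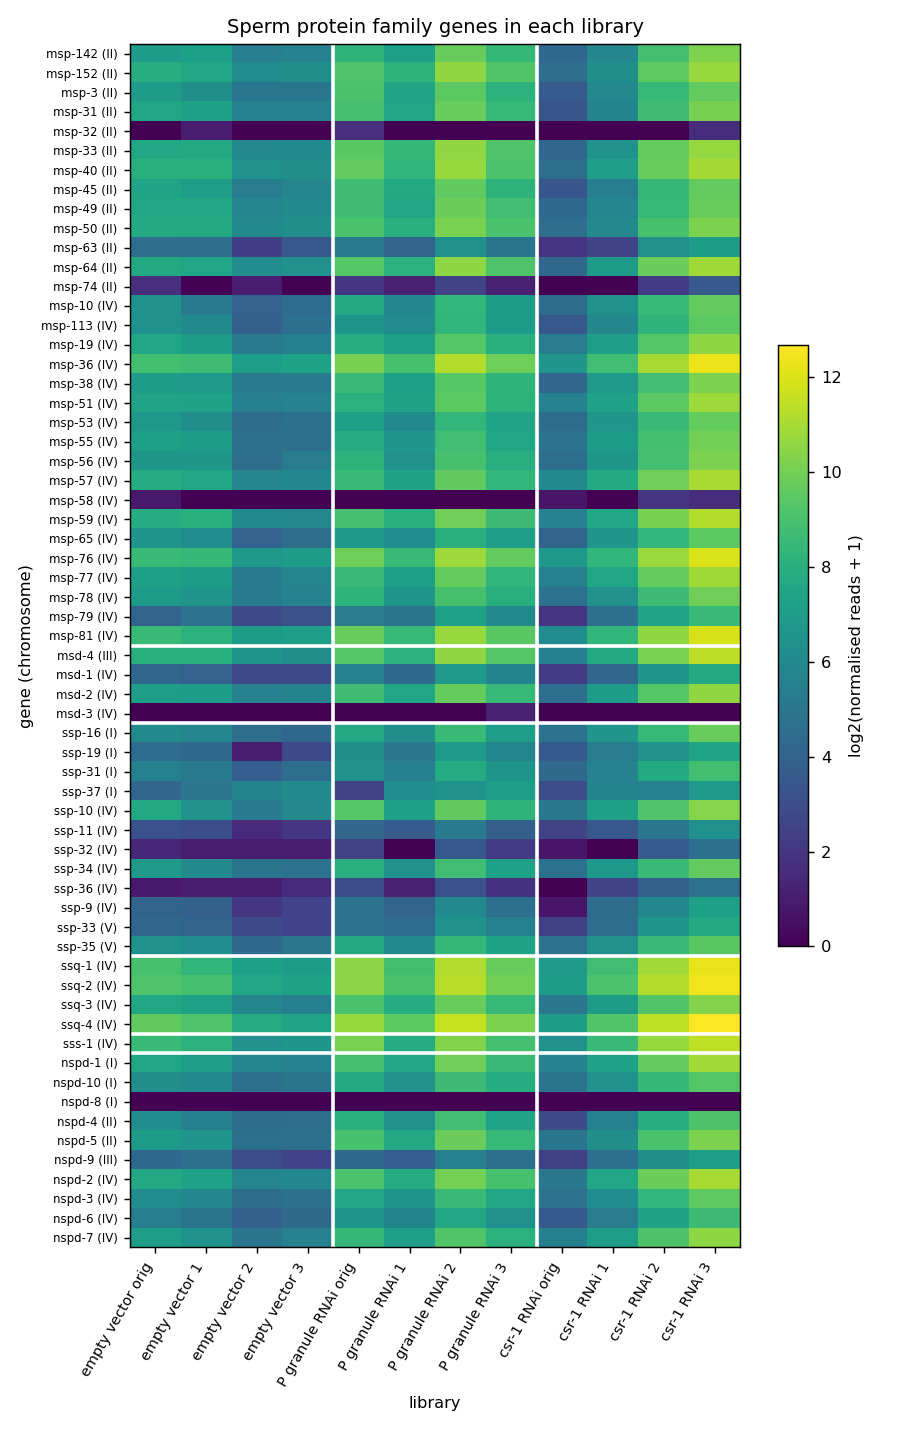
Level of each of the 62 genes, as log2(normalised reads + 1), in the 12 libraries; rows are grouped by family with the chromosome in brackets, and white lines part the families and the groups. The rightmost csr-1 RNAi column is the brightest for 53 of the 55 tested genes, the csr-1 RNAi column orig is the darkest of its group for all 55, and ssp-37 departs from the column pattern.

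Markers of other tissues varied between the same libraries. The mean log2 level of 122 genes of the cuticle and hypodermis was 7.097, 6.60, 5.10 and 5.23 in the controls, 5.38, 6.17, 6.91 and 6.84 under P granule RNAi, and 4.52, 5.03, 6.87 and 7.02 under csr-1 RNAi. In the control and csr-1 groups the libraries stood in the same order by this level as by the summed sperm protein genes, and under P granule RNAi they did not. Summed over all 196 listed genes, the cuticle and hypodermis took 46877 to 68783 (control), 35222 to 129253 (P granule RNAi) and 41604 to 63658 (csr-1 RNAi) normalised reads, with 28 to 61 of the 196 at 0 in a library. By these sums the libraries of no group stood in the order of the sperm protein genes. The sums were 47909, 68783, 46877 and 49529 in the controls and 41604, 59251, 55362 and 63658 under csr-1 RNAi. Body muscle levels (7 genes tested of 8) were 7.85, 9.12, 9.74 and 10.32 under csr-1 RNAi, 8.88, 9.40, 10.30 and 10.29 under P granule RNAi, and 8.85, 9.56, 8.67 and 8.94 in the controls. The 8 muscle genes summed to 3545 to 6721 (control), 3833 to 11634 (P granule RNAi) and 2215 to 12694 (csr-1 RNAi), and none was at 0. Under csr-1 RNAi the muscle sums were 2215, 4967, 7626 and 12694. These sums and the muscle levels there stood in the same library order as the sperm protein genes. In the control and P granule RNAi groups neither did. Gonadal sheath and spermatheca genes, the tissues next to stored sperm, had mean log2 levels of 6.91 to 7.67 (control), 6.61 to 7.73 (P granule RNAi) and 7.11 to 7.57 (csr-1 RNAi). Their 10 genes summed to 22121 to 33518, 14496 to 17177 and 11759 to 40125 in these groups, with none at 0. For 11 intestine genes the sums were 9143 to 58295, 3943 to 50310 and 9817 to 44829, again with none at 0. Under csr-1 RNAi the intestine sums were 44829, 24711, 22081 and 9817, the reverse of the order of the sperm protein genes. In the other groups the intestine order was neither the same nor the reverse. Sheath and spermatheca sums under csr-1 RNAi were 40125, 26026, 29841 and 11759. The part of these tissues in the sperm gene levels was not tested.

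Among the major sperm protein genes, the highest level per kb of coding length was that of msp-36 on chromosome IV, with 764 normalised reads per kb in the controls, 3194 under P granule RNAi and 5000 under csr-1 RNAi. It was followed by msp-76 with 632, 2563 and 4022 per kb, and by msp-81 with 593, 2330 and 3707 per kb. Over the 28 msp genes tested, control levels ran from 37.3 to 764 per kb with a median of 251. The differences in level between these 3 genes were smaller than the spread of each between the libraries of a group.

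In normalised reads, msp-36 had 451, 427, 131 and 164 in the controls, 1093, 511, 2344 and 957 under P granule RNAi, and 95.2, 439.6, 2101 and 5043 under csr-1 RNAi. All its P granule RNAi libraries exceeded all controls, whereas its csr-1 RNAi libraries spanned them. Its log2 fold change was 2.06 ± 1.01 (SE) for P granule RNAi (limma, adjusted p = 0.371) and 1.68 ± 1.01 (SE) for csr-1 RNAi (limma, adjusted p = 0.298). The values of msp-76 were 390.0, 349.5, 108 and 123 in the controls, 935, 381, 1835 and 786 under P granule RNAi, and 108, 324, 1765 and 3980.0 under csr-1 RNAi. For msp-76 the groups overlapped, P granule RNAi library 1 lying below control library orig. The values of msp-81 were 383, 278, 119 and 130.5 in the controls, 858, 355, 1685 and 681 under P granule RNAi, and 69.8, 319, 1502 and 3804 under csr-1 RNAi. Like msp-36, both ran over a wider range within csr-1 RNAi than in the other groups.

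The msd genes encode small proteins with the major sperm protein domain, and 3 of the 4 were tested. The highest per kb was msd-4, the only one on chromosome III, with 251, 244, 99.0 and 75.1 normalised reads in the controls, 619.7, 287, 1506 and 646 under P granule RNAi, and 42.9, 209, 1134 and 2692 under csr-1 RNAi. Its P granule RNAi libraries all exceeded its controls. The chromosome IV gene msd-2 had 132, 121, 49 and 49.4 in the controls, 423, 174, 823 and 357 under P granule RNAi, and 22.5, 126, 641 and 1542 under csr-1 RNAi. The lowest of the 3 tested, msd-1, had 5.93 to 17.1 (control), 19 to 116 (P granule RNAi) and 3.64 to 218 (csr-1 RNAi) normalised reads. For P granule RNAi the log2 fold changes of the 3 genes ran from 2.13 to 2.26 and for csr-1 RNAi from 1.48 to 1.77, and none passed the limma test (adjusted p of 0.274 or more).

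Among the ssp genes, the highest level per kb was that of ssp-10, with 204, 90.0, 37 and 61.3 normalised reads in the controls, 639, 139.5, 762 and 302 under P granule RNAi, and 32.7, 146, 577 and 1316 under csr-1 RNAi. The levels of ssp-34 were 25.7 to 111 (control), 85.0 to 438 (P granule RNAi) and 26.9 to 801 (csr-1 RNAi). On chromosome I, ssp-16 had 63.4, 54.4, 22 and 17.8 in the controls, 197, 77.4, 368 and 135 under P granule RNAi, and 25.4, 97.1, 362 and 851 under csr-1 RNAi. All 4 P granule RNAi libraries of ssp-16 lay above the controls, and so did all csr-1 RNAi libraries other than orig. Its log2 fold changes were 2.26 ± 0.92 (SE) for csr-1 RNAi (limma, adjusted p = 0.126) and 2.25 ± 0.92 (SE) for P granule RNAi (limma, adjusted p = 0.342).

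The largest change of any tested member under csr-1 RNAi was that of ssp-19, a chromosome I gene for a small protein with the major sperm protein domain. It had 20.3, 17.8, 1 and 5.93 normalised reads in the controls, 78.9, 31.7, 112 and 55.4 under P granule RNAi, and 10.9, 38.6, 86.6 and 167 under csr-1 RNAi. Its P granule RNAi libraries and csr-1 RNAi libraries 1, 2 and 3 exceeded every control. The log2 fold change was 2.57 ± 0.88 (SE) under csr-1 RNAi (limma, adjusted p = 0.0702) and 2.89 ± 0.88 (SE) under P granule RNAi (limma, adjusted p = 0.297), so it did not pass the threshold in either. With only 2 controls at 10 or more, it was admitted by the filter through its RNAi libraries.

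The ssq genes, all 4 on chromosome IV, held the highest reads of single members, led by ssq-4 with 760.5, 579.8, 219.9 and 166 in the controls, 1641, 712, 3025 and 1145 under P granule RNAi, and 127, 593, 2792 and 6559 under csr-1 RNAi. Per kb of coding length ssq-4 stood at 385 in the controls, below the 764 of msp-36. The levels of ssq-2 were 163 to 583 (control), 519 to 2593 (P granule RNAi) and 121 to 5339 (csr-1 RNAi), and those of ssq-1 were 129.5 to 509, 464 to 2275 and 109.8 to 4683. The single sss gene, sss-1, had 383, 283, 85.0 and 99.9 in the controls, 1115, 233, 1242 and 488 under P granule RNAi, and 80.7, 379.9, 1633 and 2830 under csr-1 RNAi. In sss-1 and in 3 of the 4 ssq genes P granule RNAi overlapped the controls.

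Of the nspd genes, which encode short nematode-specific peptides, nspd-2 was the highest per kb, at 536 in the controls, 2697 under P granule RNAi and 3818 under csr-1 RNAi. In reads it had 197, 149.7, 53.0 and 56.4 in the controls, 536, 228, 1031 and 502 under P granule RNAi, and 32.7, 183, 925 and 2112 under csr-1 RNAi. The levels of nspd-1 were 47.5 to 181 (control), 192 to 982 (P granule RNAi) and 48.7 to 1922 (csr-1 RNAi). The largest change of any tested member under P granule RNAi was that of nspd-5 on chromosome II, with 119, 96.3, 23.0 and 23.7 in the controls, 503, 198, 882 and 357 under P granule RNAi, and 29.1, 74.7, 532 and 1147 under csr-1 RNAi. All P granule RNAi libraries of nspd-5 lay above the controls, with a log2 fold change of 3.04 ± 1.03 (SE), which did not pass the test (limma, adjusted p = 0.316).

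Across the 55 tested members, the group means of each RNAi treatment and the control were compared by limma, with p-values adjusted over all 11345 genes. For csr-1 RNAi against the control 0 members passed adjusted p = 0.05, against 14.8% of all genes tested. By unadjusted p under 0.05, 5 of the 55 passed, against 28.6% of all genes. All 55 estimates were above 0, with a median log2 fold change of 1.68, a range of 0.04 to 2.57 and SEs of 0.75 to 1.21, beside a median of 0.02 over all genes. By family the medians were 1.54 for msp, 1.54 for msd, 1.83 for ssp, 1.62 for ssq, 1.81 for sss and 1.76 for nspd. Genes that did not pass are not thereby shown to be unchanged.

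The outcome for csr-1 RNAi turned on 1 library and on the test. Without csr-1 RNAi library orig, 37 of the 55 members were called higher by limma, against 18.9% of all genes called. Without the library named orig in each of the 3 groups, 25 were called, against 15.1% of all genes. Without csr-1 RNAi library 3 the median fell to 0.84, with 46 of the 55 estimates above 0. Applied to the whole reads, edgeR's quasi-likelihood test called 3 members, msp-77 (adjusted p = 0.0482), ssp-16 (adjusted p = 0.0392) and nspd-7 (adjusted p = 0.0487), against 14% of all genes, and DESeq2 called 39, against 21.6%. The authors' deposited table for csr-1 RNAi gave an adjusted p under 0.05 for 50 of the 55 tested members, all with a ratio above 1, against 5.16% of the genes it gives one for. In the authors' deposited table the ratios of the 55 members ran from 1.31 to 10.2, with a median of 5.88.

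For P granule RNAi against the control, 0 of 55 members passed in limma and 0 in edgeR, where 0.0617% of all genes passed in each, and 0 in DESeq2, where 0.811% did. By unadjusted p under 0.05, 19 of the 55 passed in limma, against 13.8% of all genes, 34 in edgeR, against 14.8%, and 44 in DESeq2, against 17.2%. All 55 limma estimates were above 0, with a median log2 fold change of 2.08 and a range of 0.32 to 3.04, beside 0.03 over all genes. The family medians were 2.07 for msp, 2.17 for msd, 1.90 for ssp, 2.08 for ssq, 1.85 for sss and 2.25 for nspd. In normalised reads, all 4 P granule RNAi libraries lay above all 4 controls for 29 of the 55 members, against 5.13% of all genes. These were 13 of 28 msp, 3 of 3 msd, 4 of 10 ssp, 1 of 4 ssq, 0 of 1 sss and 8 of 9 nspd genes. Among the 29 were msd-1, msp-79, ssp-11, ssp-19 and ssp-33, which met the filter only with RNAi libraries. The count was not repeated by share of the reads in genes. By that share the summed members of P granule RNAi library 1 fell between the controls. The authors' deposited table for P granule RNAi gave an adjusted p under 0.05 for 39 of the 55 members, with ratios above 1, against 0.558% of the genes it gives one for. In the authors' deposited table the ratios of the 55 ran from 1.83 to 7.42, with a median of 4.24. Both comparisons use the same control libraries, so their directions are not independent.

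**Figure D3:**
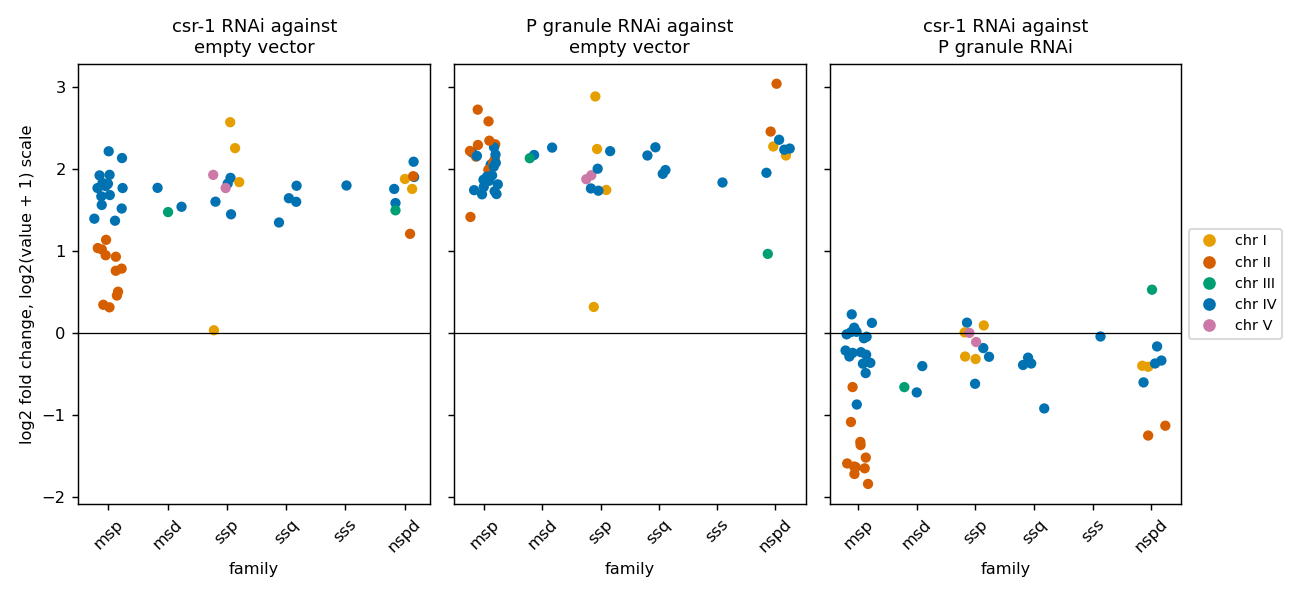
Log2 fold change of each of the 55 tested genes in the 3 comparisons, by family and coloured by chromosome, from limma on log2(normalised reads + 1). All points lie above 0 against the empty vector, and the msp genes of chromosome II lie below those of chromosome IV under csr-1 RNAi, at medians of 0.79 and 1.79.

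Set against each other, the RNAi groups gave no member past limma's adjusted threshold, 0 of 55 (9.52% of all genes passed) and 0 at an unadjusted p under 0.05 (23.3% of all genes). In edgeR and DESeq2 0 members passed as well, where 9.11% and 13.4% of all genes did. The median log2 fold change of csr-1 RNAi over P granule RNAi was −0.36, with 10 estimates above 0 and 45 below. This direction did not hold: the median was 0.55 in edgeR and 0.53 in DESeq2, with 43 of the 55 estimates above 0 in each, and 0.60 in limma without csr-1 RNAi library orig. Means of the summed reads stood the other way round from the limma median, at 32012 for csr-1 RNAi and 23988 for P granule RNAi.

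The members with the largest differences between the RNAi groups were msp-45, msp-31 and msp-49, all on chromosome II. The levels of msp-45 were 167, 139, 40 and 53.4 in the controls, 433, 209, 772 and 291 under P granule RNAi, and 9.45, 42.3, 349 and 795 under csr-1 RNAi. Those of msp-31 were 179.6, 149, 47 and 44.5 in the controls, 489, 181, 863 and 361 under P granule RNAi, and 8.72, 51.1, 431 and 1095 under csr-1 RNAi. In csr-1 RNAi libraries orig and 1 they stood at or near the bottom of the 12 libraries, and in library 3 at or near the top. For msp-49 the values were 187, 184, 54 and 63.3 in the controls, 427, 181, 898 and 439.6 under P granule RNAi, and 18.2, 53.6, 356 and 861 under csr-1 RNAi. The log2 fold changes of csr-1 RNAi over P granule RNAi were −1.84 ± 1.12, −1.72 ± 1.21 and −1.65 ± 1.02 (SE) for msp-45, msp-31 and msp-49 (limma, adjusted p of 0.376 or more). Against the control they had 0.32, 0.51 and 0.35 under csr-1 RNAi, and 2.15, 2.22 and 1.99 under P granule RNAi. For the 3 genes the csr-1 RNAi estimates changed sign when csr-1 RNAi library 2 or 3 was left out.

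That these genes sit on chromosome II led to a split of the msp genes by chromosome, made after their values were seen and so given as a description without a test. The ratio of the summed reads of the 13 msp genes on chromosome II to those of the 18 on chromosome IV is taken within a library, and so does not depend on size factors. In the controls it was 0.628, 0.670, 0.725 and 0.682. Under P granule RNAi it was 0.847, 0.853, 0.864 and 0.813. Under csr-1 RNAi it was 0.249, 0.277, 0.456 and 0.440. The 3 groups did not overlap, at 0.676 ± 0.0398 (SD, n = 4) in the controls, 0.844 ± 0.0219 (SD, n = 4) under P granule RNAi and 0.355 ± 0.108 (SD, n = 4) under csr-1 RNAi. Thus chromosome II supplied 40.3% ± 1.42 of the msp reads in the controls, 45.8% ± 0.650 under P granule RNAi and 25.9% ± 5.90 under csr-1 RNAi (SD, n = 4 each).

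The libraries of a group also differed in their amount of msp RNA. Under csr-1 RNAi the libraries with summed msp reads of 858 and 3491 had ratios of 0.249 and 0.277, and those with 18811 and 43492 had the higher ratios of 0.456 and 0.440. In the controls the libraries with 4963 and 4327 had ratios of 0.628 and 0.670, and those with 1359 and 1563 had 0.725 and 0.682. Under P granule RNAi, with sums of 5215 to 24797, the ratios lay within 0.813 to 0.864. The part of the amount in the ratio was not tested. Leaving out any single library moved the group means over 0.660 to 0.692 (control), 0.838 to 0.855 (P granule RNAi) and 0.322 to 0.391 (csr-1 RNAi).

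The shift was spread over the genes of each chromosome. As a share of all msp reads, 11 of the 11 tested chromosome II genes were lower under csr-1 RNAi than in the controls, at 0.463 to 0.809 of their control share, and 15 of the 17 tested chromosome IV genes were higher, at 0.960 to 1.72 over the 17. Shares within a library sum to a constant, so the rise of the one side goes with the fall of the other. Under P granule RNAi 8 of 11 chromosome II genes took a larger share than in the controls (0.641 to 1.58) and 13 of 17 chromosome IV genes a smaller one (0.756 to 1.13). In log2 fold changes against the control, the msp medians under csr-1 RNAi were 0.79 (0.32 to 1.14) for chromosome II and 1.79 (1.37 to 2.22) for chromosome IV, with no overlap, and under P granule RNAi they were 2.22 and 1.91. Over all genes tested, chromosomes II and IV had medians of 0.05 and 0.11 under csr-1 RNAi, and of 0.06 and 0.09 under P granule RNAi. The largest msp change under csr-1 RNAi was that of msp-10 on chromosome IV, with 82.9, 36.6, 15 and 20.8 in the controls, 197, 59.6, 338 and 121 under P granule RNAi and 21.1, 81.0, 358 and 792 under csr-1 RNAi. The largest under P granule RNAi was that of msp-3 on chromosome II, with 126, 75.3, 30.0 and 30.6 in the controls, 525, 170.0, 709 and 284 under P granule RNAi and 11.6, 61.0, 361 and 787 under csr-1 RNAi.

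**Figure D4:**
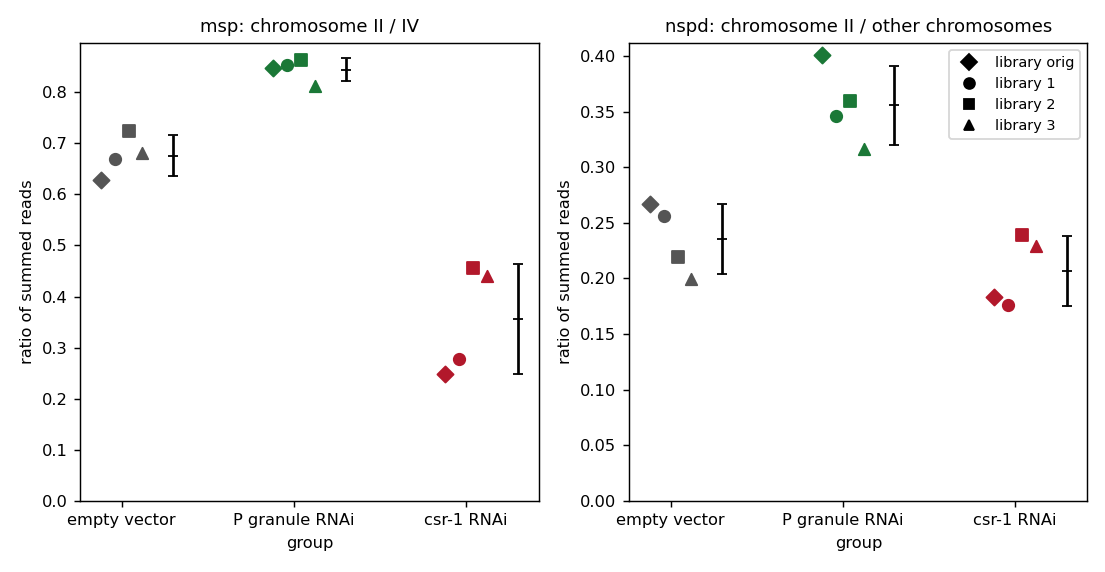
Left, ratio of summed msp reads from chromosome II to those from chromosome IV; right, ratio of summed nspd reads from chromosome II to those from the other chromosomes. Points are libraries, bars are the mean ± SD of 4; the 3 groups are apart for msp, while for nspd the csr-1 RNAi points overlap the controls.

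The nspd family allowed the same look, with nspd-4 and nspd-5 on chromosome II. Their summed reads relative to the nspd genes elsewhere were 0.267, 0.256, 0.219 and 0.199 in the controls, 0.401, 0.346, 0.359 and 0.316 under P granule RNAi, and 0.184, 0.176, 0.239 and 0.229 under csr-1 RNAi. The P granule RNAi libraries lay above all controls, at 0.355 ± 0.0351 against 0.235 ± 0.0316 (SD, n = 4), but csr-1 RNAi, at 0.207 ± 0.0316 (SD, n = 4), overlapped the controls. Since nspd-5 was already named for the largest change under P granule RNAi, this ratio is a description and no independent second case.

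Most members followed the common library pattern closely, and a few did not. The SD, over the 12 libraries, of a gene's log2 level about the mean of the members was 0.11 for msp-36, the tightest, and had a median of 0.33. It was 0.77 for ssp-19 and 0.68 for msp-45. The highest was 1.81, for ssp-37 on chromosome I. That gene had 17.1, 31.4, 52.0 and 65.2 normalised reads in the controls, 4.43, 73.6, 87.8 and 138 under P granule RNAi, and 7.27, 51.1, 45.2 and 113 under csr-1 RNAi. It was lowest in the library named orig of every group, including control library orig, which was the highest of the controls for 47 members. P granule RNAi library orig was the highest of its group for 0 members, and the lowest for ssp-37 only. The gene ssp-37 gave the smallest estimates of the tested members, 0.04 ± 1.003 (SE) for csr-1 RNAi and 0.32 ± 1.003 (SE) for P granule RNAi (limma, adjusted p = 0.988 and 0.884). It was singled out after its values were seen. Of the listed sheath and spermatheca genes, fkh-6, inx-8, inx-9, lim-7, ipp-5 and ceh-18 were also lowest in library orig of every group. The others listed, let-502, plc-1, myo-1 and fln-1, were not, and a link to ssp-37 was not tested.

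**Figure D5:**
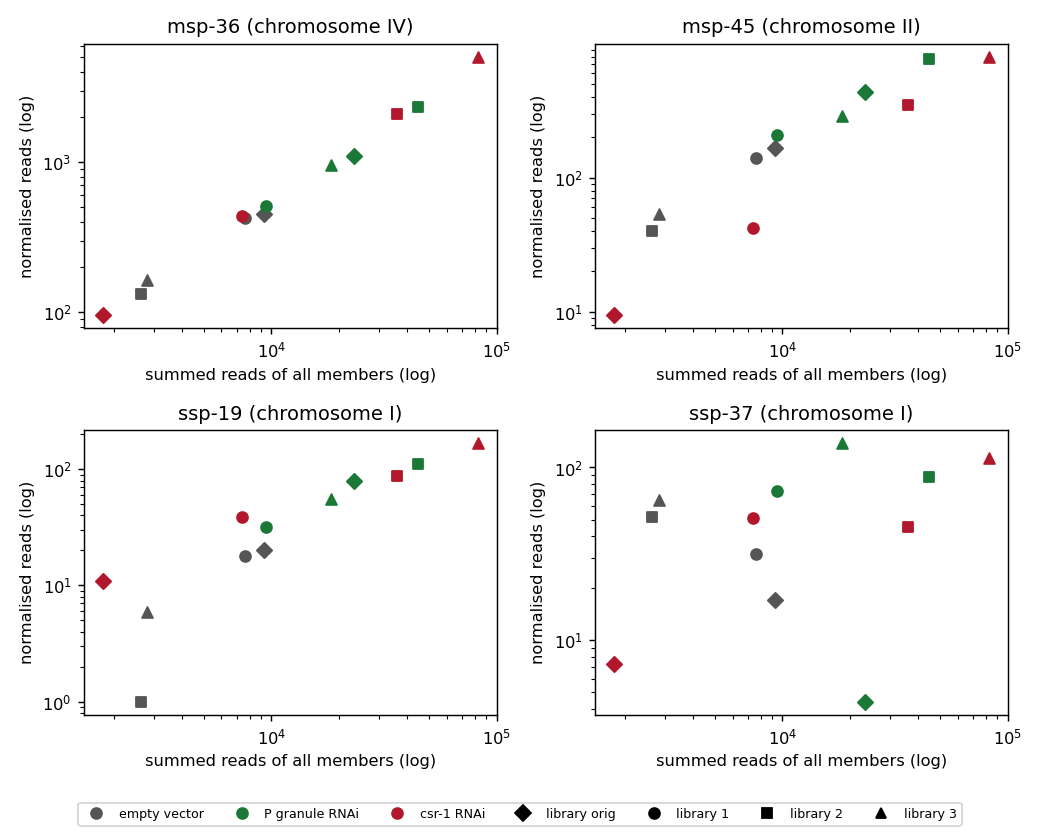
Normalised reads of msp-36, msp-45, ssp-19 and ssp-37 against the summed reads of all 62 members, each point a library, both axes on a log scale. Points of msp-36 fall close to a line, csr-1 RNAi points of msp-45 fall below the others, and ssp-37 shows no such line. For ssp-19 all P granule RNAi points lie higher than the controls, but csr-1 RNAi library orig lies lower than control libraries orig and 1.

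Other genes of the sperm programme were read through 3 lists. Of 7 regulators, fog-3, which encodes a Tob protein needed for the sperm fate, rose under csr-1 RNAi, from 23.6, 46.0, 34.0 and 18.8 normalised reads in the controls to 188, 401, 328 and 249 (log2 fold change 3.23 ± 0.34 SE, limma, adjusted p = 0.000169). No csr-1 RNAi library overlapped a control, in contrast to the sperm protein genes in the same libraries. Under csr-1 RNAi elt-1, which encodes a GATA factor, fell from 154, 148, 186 and 189.8 to 20.4, 31.1, 70.6 and 94.9 (log2 fold change −1.86 ± 0.40 SE, limma, adjusted p = 0.00876). The CPEB gene cpb-1 also fell, by 0.82 ± 0.19 (SE) on the log2 scale (limma, adjusted p = 0.0141).

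The other regulators did not pass under csr-1 RNAi. These were spe-44, a transcription factor gene of spermatogenesis, at −0.32 (limma, adjusted p = 0.0810), fog-1, another CPEB gene of the sperm fate, at 0.57 (limma, adjusted p = 0.0549), and the sperm Argonaute genes alg-3 and alg-4, at 0.71 and 0.85 (limma, adjusted p of 0.645 or more). The reads of alg-4 were 22.5, 92.2, 510.3 and 952 under csr-1 RNAi, in the same library order as the sperm protein genes. Under P granule RNAi 0 of the 7 passed, with a median log2 fold change of 0.10; the values there were 0.65 for fog-3 and −0.16 for elt-1.

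Fibrous bodies and membranous organelles are the structures in which major sperm protein is packed, and 12 genes of their assembly and function were tested. Under csr-1 RNAi 2 of the 12 rose and 0 fell, with a median of 1.44. The casein kinase gene spe-6 rose from 207, 189, 259.9 and 160.2 to 851, 773, 745 and 744 (log2 fold change 1.95 ± 0.16 SE, limma, adjusted p = 3.66e-05), with csr-1 RNAi library orig the highest of its group. The other was spe-47, which encodes a protein with a major sperm protein domain (1.64 ± 0.49 SE, limma, adjusted p = 0.0417). The phosphatase gene gsp-3 had 38.5, 207, 800.3 and 1932 under csr-1 RNAi, again in the order of the members, and did not pass (limma, adjusted p = 0.312). Under P granule RNAi 0 of the 12 passed, with a median of 1.19.

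Of 13 tested genes of sperm activation and fertilisation, 0 passed under csr-1 RNAi and 0 under P granule RNAi, with medians of 1.27 and 0.91. These lists are to be read against the 14.8% of all genes called under csr-1 RNAi and the 0.0617% called under P granule RNAi.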

How the data were processed

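Poly(A) RNA was read as single 100-base reads from a kit that does not mark strand, per the labels' protocols. The tools listed, without their roles, were DESeq 1.1.2.1, HTSeq 0.5.4p3, TopHat2 2.0.8b, SAMtools 0.1.18 and CASAVA, per the submitters' processing notes. For the genome build, none is given in the sources used here. The main deposited table gives, as a signal, the reads of each gene after division by the library's size factor, and 187378 of 187378 values above 0 came out as whole reads within 0.01. Another pair of tables that the authors deposited give a ratio of group means as a fold change, with p-values and adjusted p-values, and were used as deposited. The 5 rows that name no gene stayed out. Ambiguous reads were 0.783% to 0.917% of all reads counted for a library, these rows included. Columns that were not used numbered 0.

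The labels describe 3 samples, and the table's 12 columns were assigned to groups by name. The meaning of orig was not given, and p-values measure the spread between these pools. Genes with at least 10 normalised reads in at least 4 libraries were kept (11345). The test was limma 3.58.1 in R 4.3.3 (trend, robust) on log2(value + 1), a scale that understates changes of low genes, over 12 libraries, with Benjamini-Hochberg adjustment over all genes and a threshold of 0.05. It was tested on simulated counts with one dispersion for all genes and no effect shared by the genes of a library. The members here rose and fell together, so that simulation does not speak to them. Alternatives were edgeR 4.0.16, DESeq2 1.42.0, TMM scaling, other filters and pseudocounts, a replicate block and libraries left out. Names, chromosomes and coding lengths came from WBcel235 annotations, matched for 45370 of 45836 entries (98.98%); msd-3 and ssp-11 follow the RefSeq names, since the other annotation names these genes msd-1 and ssp-9. No coordinates or sequences are given.

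The members and lists were chosen with earlier results of these data known. Genes named in the text are the 3 highest of each family by mean, the 3 largest changes of each comparison, and all members called, of which there were 0; ssp-37, nspd-9, the members that met the filter through RNAi libraries, the pseudogenes and the untested members were named after their values were seen, and so were the genes that edgeR called.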

Additional observations from a re-analysis of the deposited data

How the results depend on the processing

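The counts of members called, the medians over the tested members and the fold changes of the genes named by rule were recomputed under 21 alternatives; family medians and the other gene lists were not. The count of members called for csr-1 RNAi against the control was 0 in limma, 3 in edgeR, 39 in DESeq2, 25 without the 3 orig libraries, and 0 to 37 with 1 library left out, the 37 without csr-1 RNAi library orig. In the other 2 comparisons it was 0 under all 21. With 1 library left out, the median log2 fold change ran from 0.84 to 2.64 for csr-1 RNAi, from 1.71 to 2.44 for P granule RNAi and from −1.19 to 0.60 for csr-1 over P granule RNAi. Among the 22 genes named by rule, the csr-1 RNAi estimates that changed sign when 1 library was left out were those of msp-45 (−0.65 to 1.43), msp-31 (−0.54 to 1.73) and msp-49 (−0.55 to 1.28); the negative values came without csr-1 RNAi library 2 (−0.26, −0.09 and −0.12) or 3, and for msp-45 also without control library 2 (−0.04). Over all 55, 46 estimates stayed above 0 without csr-1 RNAi library 3. The cause was not tested. TMM scaling left the medians at 1.70, 2.06 and −0.32.

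Libraries of the same name in different groups did not vary together consistently (correlations of −0.47 to 0.66 over 12 pairs), so the names were not taken as pairs. Some such pairs did vary together, as did library 2 of P granule RNAi and of csr-1 RNAi (0.66). An effect shared by libraries of the same name was not tested. With the name as a replicate block, 0 members were called in each comparison, against 18.4%, 0.0529% and 11.3% of all genes, and medians stayed at 1.68, 2.08 and −0.36.

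The planned search of promoters for motifs was not run. The 4 libraries per group with a range of up to 46.3-fold limit what any test of single members can show. Leaving libraries out of the chromosome ratio and of the summed reads was chosen after seeing the data.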

Other observations

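A pseudogene left out by the rule also had reads. Annotated sss-2 on chromosome V had 194, 123, 37.99 and 50.4 normalised reads in the controls, 533, 58.4, 547 and 143 under P granule RNAi, and 10.9, 56.0, 405 and 787 under csr-1 RNAi, the last in the same library order as the coding members. On chromosome II, msp-71 had 0, 0, 19.8 and 68.0 under csr-1 RNAi, and msp-42 had 0, 1.25, 13.2 and 59.3. The other 4 pseudogenes, msp-52, msp-37, nspd-12 and nspd-11, had at most 2.49 normalised reads in any library. Shared reads from near-identical genes were not tested for.

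Of the untested members, ssp-36 had 0, 4.98, 14.1 and 25.9 normalised reads under csr-1 RNAi and 0.812 to 1.98 in the controls, and ssp-32 had 0.727, 0, 11.3 and 23.7 under csr-1 RNAi. The chromosome III gene nspd-9 was the nspd gene with the smallest change under P granule RNAi, at a log2 fold change of 0.97 against 1.50 under csr-1 RNAi, and did not pass in either (limma, adjusted p = 0.565 and 0.288).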
